A study of Homo sapiens with 7 samples.

Results

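The comparison was between SNU398 cells given PEN-WT and SNU398 cells given PEN, the carrier peptide alone. Members were every gene whose mean normalized count over the 4 RNA libraries of the series was at least 50, which gave 12578 genes of 23710 (53.05%). A gene low with some peptides could pass this mean through high values with others. The lowest mean kept was 50.02 and the highest left out was 49.91, and 239 genes lay from 50 to 60 against 286 from 40 to 50. A normalized count is the number of reads of a gene multiplied by a factor for its library, and the deposited value is its log2. SNU398 is an established human hepatocellular carcinoma line, and all 4 libraries came from cells exposed to 30 µM of a peptide over 8 hours. PEN (penetratin) and PEN-WT had 1 library each, as did PEN-MUT and PEN-FFW, and there was no library from cells without peptide among those used here. From what is known of the study, penetratin is a short cell-entry sequence, PEN-WT joins it to the stretch of SALL4 that binds RBBP4, PEN-MUT carries a mutated form of that stretch, and PEN-FFW an engineered form. The question put by the pair is which transcripts differ once the SALL4 stretch is added to the carrier.

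SALL4 is a zinc finger transcription factor of embryonic stem cells and fetal liver that many liver carcinomas express again. It recruits the NuRD complex, in which histone deacetylases and a chromatin remodelling ATPase sit with the histone-binding subunit RBBP4, and NuRD is best known for silencing genes. Many of the genes described below belong to another circuit, in which growth factor receptors activate the kinase ERK. ERK switches on immediate early transcription factors such as EGR1 and FOS within minutes, and also the phosphatases and Sprouty proteins that turn it off again.

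Reads in genes above the lower limit of the table numbered 37784093 with PEN, 32043544 with PEN-MUT, 40717633 with PEN-WT and 27347377 with PEN-FFW. Each difference below is the log2 value of PEN-WT minus that of PEN, less the same for the median kept gene (0.03 as deposited, and -0.28 for PEN-FFW). Normalized counts are printed without this centring, so the place of PEN-FFW in an order of counts can differ from its place once centred. The ± after a difference is the standard error from the counting of reads alone, with a median of 0.05 over kept genes, and no difference has a replicate check. With 1 library per peptide, a difference between peptides cannot be told apart from a difference between cultures or library preparations, and in RNA from a culture fewer expressing cells and less RNA per cell cannot be told apart either. Of the 26 hepatocyte genes looked for, 14 were at the lower limit in all 4 libraries, TTR, APOB and HNF4A among them, while ALB had 122 normalized counts with PEN and 157 with PEN-WT. Their summed level was 4299 normalized counts with PEN and 4038 with PEN-WT. TDO2 was the largest part, at 1846 with PEN and 1362 with PEN-WT. FOXA1 (976 and 1023) and CEBPA (893 and 942) went the other way. Markers of endothelial, stromal and blood cells summed to 19074 with PEN and 19279 with PEN-WT, with 9 of 16 at the lower limit in all 4 libraries (PECAM1, VWF and CD3E among them). The collagen-binding LUM made up most of the sum. DCN, ACTA2, PTPRC and CD68 also had reads, at 1856, 974, 331 and 259 normalized counts with PEN. With PEN-WT they had 1819, 1061, 362 and 282. What part such cells or their RNA had in any result was not tested.

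PEN-WT differed from PEN by a small amount in most genes. The middle 50% of kept genes lay between -0.11 and 0.12, the 5th percentile was -0.29 and the 95th was 0.36. At least 1.5-fold higher in PEN-WT were 141 genes (1.12% of kept genes), and at least 1.5-fold lower were 54 (0.429%). At 2-fold the counts were 11 (0.0875%) and 3 (0.0239%), and 831 (6.61%) were at least 25% higher and 471 (3.74%) at least 20% lower, steps of equal size on the log2 scale. The 95% counting interval left out 0 for all 141 and all 54 genes, as it did for 6098 of all kept genes (48.5%). Among the 20% of genes with the lowest counts (means of 50 to 277), the half-width of the central 68% of differences was 0.27 against a median counting error of 0.17, and 106 of the 141 higher and 29 of the 54 lower genes were in this group. Among the 20% with the highest counts the same half-width was 0.12 against a counting error of 0.03. The median of the mean normalized count was 120.0 for higher genes, 247 for lower genes and 1090.0 over all kept genes.

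**Figure D1:**
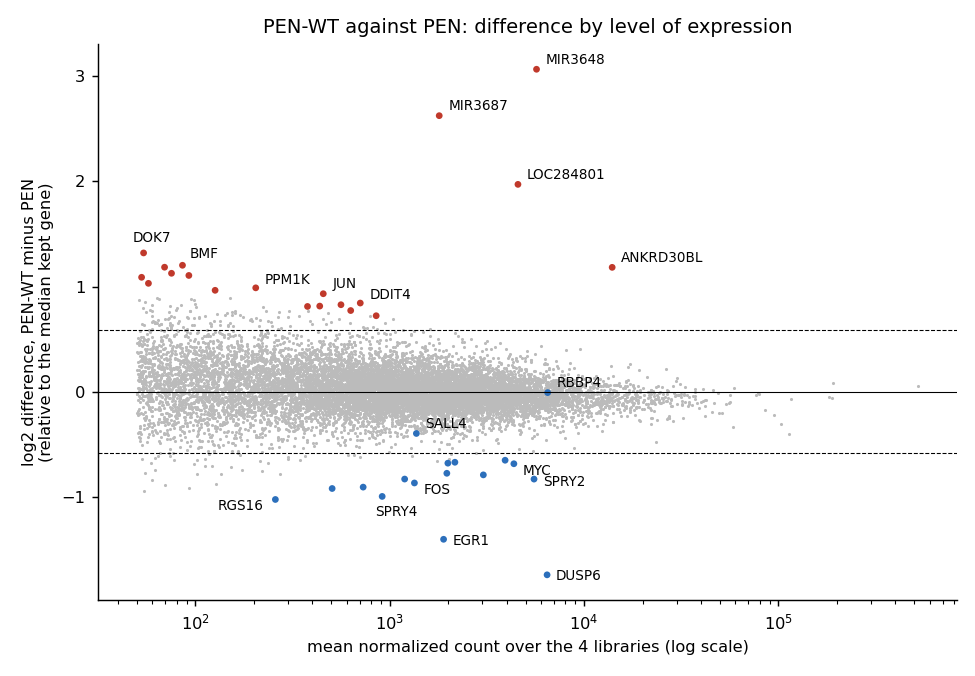
Log2 difference of PEN-WT from PEN, relative to the median kept gene, for each of 12578 genes (points) against the mean normalized count over 4 libraries (log axis). Red and blue points are the named genes above and below the median gene, and the dashed lines mark 1.5-fold; DUSP6 and EGR1 stand below all other genes, at -1.74 and -1.41.

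The lower end of the comparison held genes that ERK signalling induces. DUSP6, the phosphatase that switches ERK off in the cytoplasm, had 13038 normalized counts with PEN, 5774 with PEN-MUT, 3977 with PEN-WT and 3005 with PEN-FFW. PEN stood above the other 3 libraries, and PEN-WT was lower than PEN by 1.74 ± 0.02 on the log2 scale, 0.30 of the PEN level. EGR1, a zinc finger factor of the immediate early response, had 3726 with PEN, 1153 with PEN-MUT, 1437 with PEN-WT and 1252 with PEN-FFW, a difference of -1.41 ± 0.04. Here PEN was again the high library, and the centred differences from it were -1.71 with PEN-MUT and -1.30 with PEN-FFW. SPRY4 had 1396 with PEN, 855 with PEN-MUT, 714 with PEN-WT and 691 with PEN-FFW (-0.998 ± 0.06, with PEN-WT at 0.501 of PEN), and SPRY2 had 7882, 5905, 4522 and 3789 in the same order (-0.83 ± 0.02). Both code for Sprouty proteins, which block signalling between receptor and ERK. Once centred, SPRY4 stood at -0.73 with PEN-MUT and -0.74 with PEN-FFW. RGS16, which speeds the shutting off of G proteins, had 415 with PEN, 249 with PEN-MUT, 208 with PEN-WT and 159.7 with PEN-FFW (-1.03 ± 0.11). DUSP6, EGR1 and RGS16 were the 3 genes at least 2-fold lower. DUSP6 lies on chromosome 12 (89741012 to 89746278, minus strand), EGR1 on chromosome 5 (137801168 to 137804992, plus strand) and RGS16 on chromosome 1 (182567758 to 182573524, minus strand), all on GRCh37.

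The promoter of EGR1 is a textbook example of one run by serum response factor (SRF), which binds CArG boxes beside ETS factors that ERK phosphorylates. The 250 bases before its start, from the RefSeq promoter table (GRCh38.p14, chr5:138465229-138465478, plus strand), hold 2 CArG boxes, in capitals, whose first bases lie at -105 and -83, counted back from the start.
EGR1: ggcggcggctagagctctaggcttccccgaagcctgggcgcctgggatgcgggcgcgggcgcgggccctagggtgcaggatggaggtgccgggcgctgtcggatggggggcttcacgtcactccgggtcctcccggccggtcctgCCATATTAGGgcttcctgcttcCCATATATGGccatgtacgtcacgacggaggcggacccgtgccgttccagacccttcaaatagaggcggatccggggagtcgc
A CArG box was found on either strand in the promoters of 2 of 20 immediate early genes that the table holds (EGR1 and SRF, 10.0%) and in 312 of 27305 promoters of the same length (1.14%, and 0.955% of those of kept genes). Of the 29 genes at least 1.5-fold lower with a promoter in the table, 1 held it (EGR1), and of 97 genes at least 1.5-fold higher, 0. A match is a run of letters and was not tested as a binding site in these cells.

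Taken by list, 22 of 24 ERK feedback genes were kept, and their median difference was -0.52, the lowest of all 56 lists examined. In PEN-WT 19 of the 22 lay below the median gene. At least 20% lower were 13 (59.1%, against 3.74% of kept genes) and at least 1.5-fold lower 7 (against 0.429%). Phosphatases of MAP kinases included DUSP6 and DUSP5 (197 normalized counts with PEN, 109.0 with PEN-MUT, 109.5 with PEN-WT and 96.0 with PEN-FFW, -0.88 ± 0.15). The ETS factors ETV5 (-0.65) and ETV4 (-0.61) and the inhibitors SPRY1 (-0.64) and SPRED1 (-0.57) were also below. Above the median gene were DUSP7 (0.10), SPRED3 (0.27) and DUSP8, a phosphatase that acts mainly on the stress kinase JNK, at 44.5 with PEN, 40 with PEN-MUT, 77.6 with PEN-WT and 77.5 with PEN-FFW (0.77 ± 0.25). DUSP1 (-0.02) and IER3 (-0.08) stayed near the median gene. Against the same PEN library the list's median was -0.34 with PEN-MUT and -0.48 with PEN-FFW. All of these comparisons rest on the same PEN library. Between PEN-WT and PEN-MUT the list's median was -0.04, and DUSP6 stood at -0.54. The ETS site CCGGAAGT was found in 0 of 14 promoters of the list in the table and in 3.64% of all promoters (7.39% of those of kept genes).

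**Figure D2:**
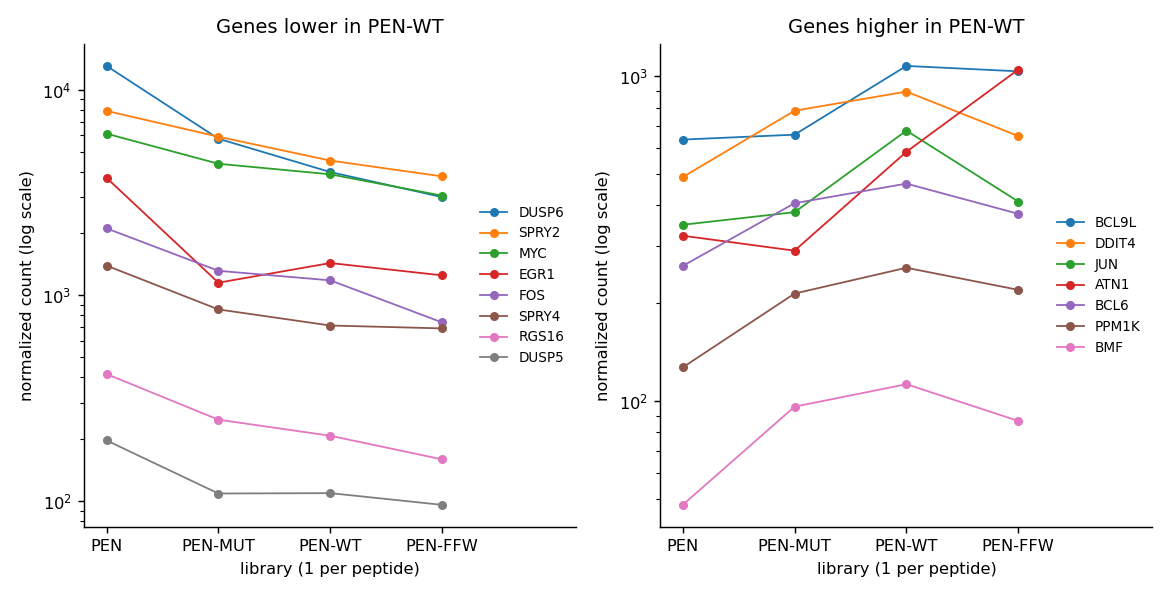
Normalized counts (log axis) of 8 lower and 7 higher genes in the 4 libraries, with lines that join the values of 1 gene and stand for no order. DUSP6 goes from 13038 with PEN to 3977 with PEN-WT with PEN-MUT between them at 5774, while JUN has 679 with PEN-WT and from 348 to 411 in the other 3.

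Immediate early genes split. Of 28 kept members 12 were above and 16 below the median gene (median -0.07), with 9 at least 20% lower (32.1%, against 3.74% of kept genes) and 4 at least 25% higher (14.3%, against 6.61%). Without centring the median was -0.04. FOS, a subunit of the AP-1 transcription factor, had 2117 normalized counts with PEN, 1317 with PEN-MUT, 1184 with PEN-WT and 739 with PEN-FFW (-0.87 ± 0.05). JUN, its partner in AP-1, went the other way, at 348 with PEN, 381 with PEN-MUT, 679 with PEN-WT and 411 with PEN-FFW (0.93 ± 0.09). PEN-WT was the highest of the 4 libraries for JUN and PEN the highest for FOS. KLF10, which answers TGF-beta and growth factors, had 4618, 2870.0, 2724 and 1910.1 in the same order of peptides (-0.79 ± 0.03). NR4A2, an orphan nuclear receptor, had 288 with PEN, 148 with PEN-MUT, 175 with PEN-WT and 273 with PEN-FFW (-0.75 ± 0.12), so here PEN-FFW lay near PEN (0.20 once centred). Its relative NR4A3 (0.63), the stress factor ATF3 (0.56) and JUND (0.48) were higher in PEN-WT. IER2, a nuclear protein induced by growth factors, had 2865 with PEN and 1826 with PEN-WT (-0.68 ± 0.04). Between PEN-WT and PEN-MUT the median of the immediate early genes was 0.23.

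The remaining genes among the 15 lowest were of several kinds. SOCS3, which blocks cytokine receptors, had 1104 normalized counts with PEN, 693 with PEN-MUT, 601 with PEN-WT and 521 with PEN-FFW (-0.91 ± 0.07). HES1, a repressor that NOTCH switches on, had 782, 478, 422 and 339.7 in the same order (-0.92 ± 0.08), and MOAP1, a partner of the death effector BAX, had 1756, 1178, 1008 and 829.9 (-0.83 ± 0.05). PEN was the highest library for each of these, and PEN-MUT came next. MYC, a driver of growth and of ribosome production, had 6109 with PEN, 4363 with PEN-MUT, 3878 with PEN-WT and 3054 with PEN-FFW (-0.69 ± 0.03). HK2, which traps glucose inside the cell, had 2693 with PEN and 1605 with PEN-WT (-0.78 ± 0.04), and the glucose transporter gene SLC2A3 had 2929 and 1878 (-0.67 ± 0.04). NBEAP1, a pseudogene whose reads may be shared with near-identical copies, had 5575 and 3622 (-0.65 ± 0.03). Across the 15 lowest genes the difference from PEN ran from -1.71 to -0.44 with PEN-MUT and from -1.84 to -0.50 with PEN-FFW. At least 1.5-fold lower there were 10 and 13 of them. The PEN library that ranked these genes is used again in both, so neither is a separate check. No share over all kept genes was taken for these counts. The difference of PEN-WT from PEN-MUT ran from -0.54 (DUSP6) to 0.32 (EGR1), with 0 of the 15 past 1.5-fold.

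The upper end held genes of several kinds. DDIT4, an inhibitor of the growth kinase mTOR, had 489 normalized counts with PEN, 782 with PEN-MUT, 896 with PEN-WT and 654 with PEN-FFW (0.84 ± 0.07). BMF, a BH3-only protein that opposes BCL2, had 47.9, 96.0, 113 and 86.8 in the same order (1.20 ± 0.23). BCL6, a transcriptional repressor, had 260.3, 406, 467 and 377 (0.81 ± 0.10), and PPM1K, the mitochondrial phosphatase that activates the breakdown of branched-chain amino acids, had 126.8, 214, 257 and 219.7 (0.99 ± 0.14). In these 4 genes PEN was the lowest library. Centred on the median gene, PEN-FFW stood at 0.70 for DDIT4, 1.13 for BMF, 0.81 for BCL6 and 1.07 for PPM1K, against 0.84, 1.20, 0.81 and 0.99 with PEN-WT. SLC25A42, a mitochondrial carrier of coenzyme A, had 447 with PEN, 679 with PEN-MUT, 779 with PEN-WT and 613 with PEN-FFW (0.77 ± 0.08), and DKK3, of a family of WNT inhibitors, had 36.1, 81.0, 83.8 and 76.6 (1.18 ± 0.26).

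In another 4 of the highest genes the difference of PEN-MUT from PEN was small, from -0.17 (ATN1) to 0.06 (BCORL1). ATN1, a transcriptional corepressor, had 322 normalized counts with PEN, 290.0 with PEN-MUT, 585 with PEN-WT and 1047 with PEN-FFW (0.83 ± 0.09). BCORL1, a corepressor that binds CtBP, had 281, 297, 505 and 661 (0.81 ± 0.10), and BCL9L, a coactivator of beta-catenin, had 637, 660.0, 1074 and 1034 (0.72 ± 0.07). DOK7, an adaptor of the neuromuscular junction, had 21.0, 21.0, 53.6 and 120.9 (1.32 ± 0.34). In ATN1, BCORL1 and DOK7 the order of counts was the same, with both control peptides low, PEN-WT above them and PEN-FFW highest. Once centred, BCL9L had that order too (0.03 with PEN-MUT, 0.72 with PEN-WT and 0.97 with PEN-FFW). PEN-MUT lay above PEN in the rest of the highest genes. SLC6A16, an orphan transporter of the neurotransmitter transporter family, had 38.6, 51.0, 86.2 and 125.6 (1.13 ± 0.25), ENTPD8, which degrades nucleotides outside the cell, had 69.7, 111, 139 and 186 (0.96 ± 0.19), and the zinc finger gene ZNF467 had 55.4, 83.0, 122 and 109.9 (1.11 ± 0.21, and 1.26 with PEN-FFW once centred). Against PEN-MUT, the 15 highest genes differed in PEN-WT by 0.05 (DKK3) to 1.35 (DOK7), and 7 of the 15 were past 1.5-fold. The PEN-WT library that ranked these genes is used again here, so this is not a separate check. No share over all kept genes was taken for it. The 15 highest genes had a median transcript GC content of 56.6%, against 49.97% for the 15 lowest.

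**Figure D3:**
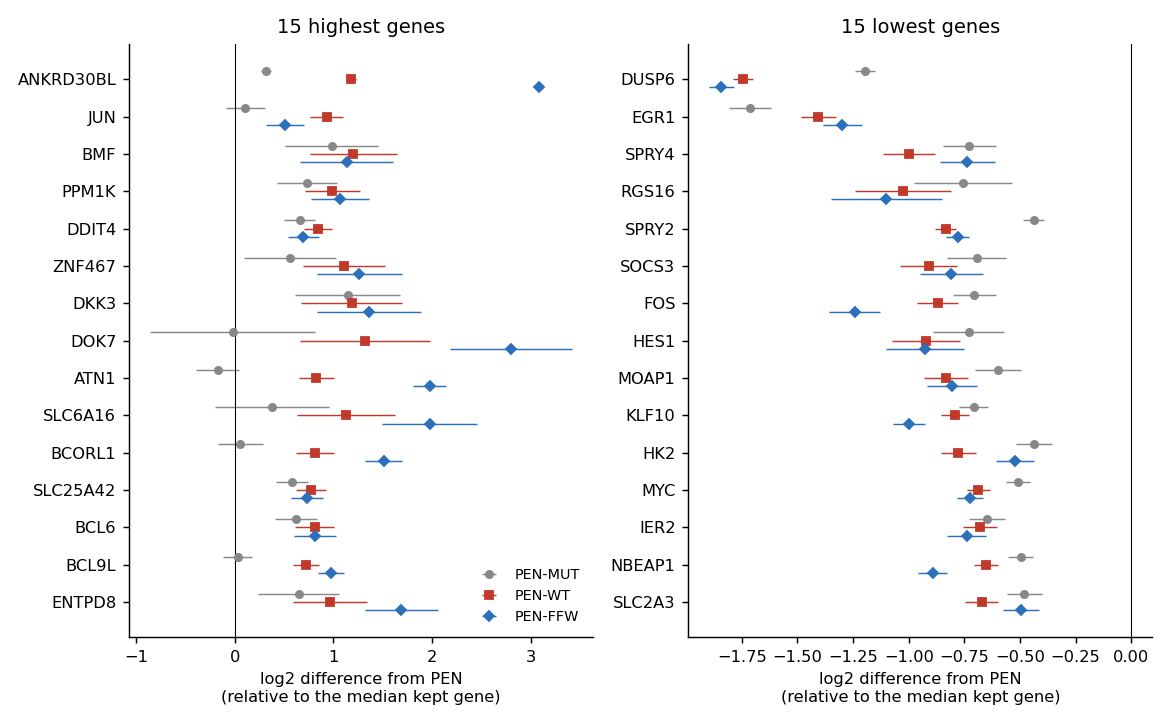
Differences from PEN on the log2 scale, less the median kept gene's, of the 15 highest and 15 lowest genes in PEN-MUT (grey circles), PEN-WT (red squares) and PEN-FFW (blue diamonds), with 95% counting intervals. All points rest on the same PEN library; PEN-MUT lies from -0.17 to 1.14 for the higher genes and from -1.71 to -0.44 for the lower genes.

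Small RNA genes and genes without a symbol of their own were left out of those ranks, but 3 of the 11 genes at least 2-fold higher were of this kind. MIR3648 had 972 normalized counts with PEN, 1855 with PEN-MUT, 8328 with PEN-WT and 11605 with PEN-FFW (3.07 ± 0.04). MIR3687 had 368, 588, 2321 and 3909.7 in the same order (2.63 ± 0.07), and LOC284801 had 989, 1334, 3967 and 11977 (1.97 ± 0.05). ANKRD30BL codes for a protein of ankyrin repeats and spans 132905164 to 133015542 of chromosome 2 on GRCh37 (minus strand). It had 4822, 6088, 11185 and 33678 (1.18 ± 0.02). All 4 ran upward in the same order, from PEN to PEN-MUT, PEN-WT and PEN-FFW. MIR3648 and MIR3687 are neighbours, so these are not 4 independent results. Whether reads of LOC284801 and ANKRD30BL are shared with other copies was not tested. MIR663A, past 1.5-fold only and named after its value was seen, had 473, 535, 903 and 3082 (0.90 ± 0.07). The other genes past 2-fold were the intron transcript ANP32A-IT1 (16.8 with PEN and 36.5 with PEN-WT, 1.09 ± 0.39) and SSPO, annotated as a pseudogene (26.0 and 54.3, 1.03 ± 0.31).

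MIR3648 lies on chromosome 21 from 9825832 to 9826011 and MIR3687 from 9826203 to 9826263, both on the plus strand of GRCh37, a short distance apart. Reads counted on such a gene in a library of longer RNA are reads of the surrounding transcript, not a measure of the mature miRNA. The mature sequences of miR-3648 and miR-663a from the RefSeq table are shown since both also occur on a scaffold that carries ribosomal DNA, with the seed (bases 2 to 8) in capitals. No sequence was at hand for MIR3687, which was not searched.
hsa-miR-3648: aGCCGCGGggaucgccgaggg
hsa-miR-663a: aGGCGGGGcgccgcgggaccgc
The seeds differ. Each mature sequence was found 2 times, letter for letter, in that unplaced GRCh37 scaffold of 161802 bases. Reads of MIR3648 and MIR663A may therefore be shared with other copies, which the counting cannot separate, and the part of this in their differences was not tested.

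Most genes for making ribosomes were below the median gene. All 30 ribosome biogenesis factors were kept and all 30 lay below it (median -0.31, range -0.55 to -0.12), with 13 at least 20% lower (43.3%, against 3.74% of kept genes) and 0 past 1.5-fold. NOP16, a nucleolar factor of the large subunit, had 2357 normalized counts with PEN, 1874 with PEN-MUT, 1646 with PEN-WT and 1284 with PEN-FFW (-0.55 ± 0.04). The nucleolar helicase DDX21 had 29668, 24857, 21763 and 17545 (-0.48 ± 0.01), and WDR43, of the small subunit processome, had 8002, 6813, 5929.8 and 4638 (-0.46 ± 0.02). NIP7, which acts on the large subunit, stood at -0.46 ± 0.03. PEN-MUT lay between PEN and PEN-WT for each of these, and the list's median was -0.25 with PEN-MUT and -0.43 with PEN-FFW, and between PEN-WT and PEN-MUT it was -0.09. Of 25 subunits of RNA polymerases I and III, which transcribe ribosomal RNA, tRNA and other short RNAs, 22 were below the median gene (median -0.17) and 4 were at least 20% lower. POLR1B, the second largest subunit of polymerase I, had 3544 with PEN and 2638.5 with PEN-WT (-0.46 ± 0.03). POLR1E (-0.39 ± 0.05), POLR3G (-0.39 ± 0.09), POLR3K (-0.35 ± 0.06) and POLR3D (-0.32 ± 0.05) were lower by less. All 27 mitochondrial ribosomal proteins were below the median gene, by smaller amounts (median -0.11, with 0 at least 20% lower), and MRPL20 stood lowest (-0.31 ± 0.04), with MRPL3 and MRPL24 at -0.23, MRPS35 at -0.20 and MRPL1 at -0.19.

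Small nucleolar RNAs, which guide the chemical modification of ribosomal RNA and are mostly cut from introns of host genes, were mostly below the median gene too. Of 63 kept genes named SNORD (the box C/D class), 57 lay below it (median -0.34). At least 20% lower were 34 (against 3.74% of kept genes) and at least 1.5-fold lower 9 (against 0.429%). The 9 had from 66.3 (SNORD99) to 385 (SNORD80) normalized counts with PEN. Differences spread more widely at such low counts, and these shares are over genes of all levels. For 44 kept SNORA genes (the box H/ACA class) the median was -0.18 with 37 below, and for 12 SCARNA genes of Cajal bodies it was -0.03. SNORD medians were -0.28 with PEN-MUT and -0.17 with PEN-FFW. All 14 kept host genes of small nucleolar RNAs were below the median gene (median -0.12, and -0.19 relative to genes of like GC content), and SNHG10 was the lowest, with 639.9 normalized counts with PEN and 483 with PEN-WT (-0.44 ± 0.08). SNHG8 (-0.29 ± 0.07), SNHG16 (-0.27 ± 0.02), SNHG1 (-0.25 ± 0.03) and SNHG12 (-0.25 ± 0.06) followed. Small RNAs are recovered unevenly by a library made from total RNA, and a host gene's reads and its small RNA's reads overlap.

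In the MYC network, a set of factors that share the partner MAX, MYC itself was the lowest of 11 kept genes while 8 were above the median gene (median 0.15). At least 25% higher were 2 of the 11 (18.2%, against 6.61% of kept genes), both antagonists of MYC: MXD4 had 849 normalized counts with PEN, 1085 with PEN-MUT, 1283 with PEN-WT and 1032 with PEN-FFW (0.56 ± 0.06), and MXD1 had 131.8 with PEN and 197 with PEN-WT (0.55 ± 0.15). The other antagonists in the list, MXD3, MNT and MXI1, stood at 0.29 ± 0.08, 0.25 ± 0.08 and 0.15 ± 0.08. MLX, which pairs with glucose sensing factors, was lower (-0.38 ± 0.05). CACGTG, the E-box that MYC and MAX bind, was found in 1 of 25 promoters of ribosome biogenesis factors in the table (UTP20, 4.00%) and in 6.49% of all 27305 (9.12% of those of kept genes).

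Most chaperones were below the median gene by small amounts. The list of cytosolic heat shock chaperones, which also holds the mitochondrial HSPD1, had 25 kept genes. Of these 20 were below the median gene (median -0.15), and 1 was at least 20% lower (4.00%, against 3.74% of kept genes). That member was HSPA8, the constitutive HSP70, with 136375 normalized counts with PEN, 132065 with PEN-MUT, 105362 with PEN-WT and 80502 with PEN-FFW (-0.40 ± 0.01). PEN and PEN-MUT lay close together for HSPA8, and PEN-WT was below both. HSP90AA1, the inducible HSP90, had 121765, 111970.0, 100386 and 80197 (-0.31 ± 0.01), and the HSP90 partner CHORDC1 (-0.29 ± 0.03) and the mitochondrial HSPD1 (-0.24 ± 0.01) were also below. DNAJB4, a helper of HSP70, was above (0.28 ± 0.09). The list's median was -0.00 with PEN-MUT and -0.24 with PEN-FFW, and between PEN-WT and PEN-MUT it was -0.15. The heat shock element, searched as GAANNTTC, was found in 7 of 23 promoters of this list (30.4%, with HSPA8, DNAJA1 and HSPB1 among them) and in 5.85% of all promoters (3.81% of those of kept genes). The promoter of HSPA8 (GRCh38.p14, chr11:123062137-123062386, minus strand, written in the direction of the gene) is shown as the example with 2 of them, in capitals, at -230 and -50.
HSPA8: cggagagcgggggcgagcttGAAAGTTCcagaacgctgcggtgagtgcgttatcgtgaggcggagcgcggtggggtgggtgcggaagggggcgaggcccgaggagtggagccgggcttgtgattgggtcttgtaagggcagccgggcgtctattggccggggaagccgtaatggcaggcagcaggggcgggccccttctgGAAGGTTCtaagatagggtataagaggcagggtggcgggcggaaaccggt

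The TRiC chaperonin, which folds actin and tubulin, and its helper prefoldin had 13 of 14 genes below the median gene (median -0.15). PFDN2 was the lowest (-0.29 ± 0.04), then CCT2 (22687 normalized counts with PEN, 21957 with PEN-MUT, 19060 with PEN-WT and 13931 with PEN-FFW, -0.28 ± 0.01), CCT6A (-0.25 ± 0.01), TCP1 (-0.21 ± 0.02) and CCT5 (-0.20 ± 0.01). Of 31 proteasome subunits 30 were below it (median -0.11, or -0.07 scaled to total reads, with 0 at least 20% lower), with PSMD12 at -0.25 ± 0.03, PSMA2 at -0.23 ± 0.03, PSMD13 at -0.19 ± 0.03, PSMA3 at -0.17 ± 0.03 and PSMA5 at -0.16 ± 0.02. Both lists had medians near that of all genes in PEN-MUT (-0.01 and 0.03).

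Genes of the response to misfolded protein in the endoplasmic reticulum were mostly below the median gene too. Of 22 chaperones and helpers of that compartment 19 were below the median gene (median -0.10, and -0.06 scaled to total reads). HSPA5, the master chaperone BiP, had 11809 normalized counts with PEN, 11447 with PEN-MUT, 9600 with PEN-WT and 8896 with PEN-FFW (-0.33 ± 0.02), and it was the 1 member at least 20% lower (4.55%, against 3.74% of kept genes). HSP90B1 (-0.26 ± 0.01), DNAJB11 (-0.24 ± 0.03) and the disulfide isomerase PDIA4 (-0.20 ± 0.02) were also below, and the ubiquitin ligase SYVN1 was above (0.34 ± 0.06). The endoplasmic reticulum stress element, searched as CCAAT and CCACG with any 9 bases between them, was found in 6 of 20 promoters of this list (30.0%) and in 0.0806% of all promoters (0.132% of those of kept genes); its last letters can run into an E-box. The 6 were HSPA5, HSP90B1, CALR, CANX, CRELD2 and XBP1. The promoter of HSPA5 (GRCh38.p14, chr9:125241344-125241593, minus strand, written in the direction of the gene) holds it, in capitals, at -66.
HSPA5: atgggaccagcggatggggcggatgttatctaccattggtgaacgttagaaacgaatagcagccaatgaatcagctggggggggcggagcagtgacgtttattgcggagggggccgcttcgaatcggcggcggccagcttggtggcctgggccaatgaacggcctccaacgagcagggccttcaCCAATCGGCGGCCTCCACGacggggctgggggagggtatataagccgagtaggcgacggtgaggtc

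Genes of the integrated stress response, in which phosphorylation of eIF2 raises the factor ATF4, lay mostly on the other side. Of 25 kept members 19 were above the median gene (median 0.11, and 0.17 at a mean of at least 20), 6 were at least 25% higher (24.0%, against 6.61% of kept genes) and 0 lower. Beside DDIT4, VLDLR, a lipoprotein receptor, had 118 normalized counts with PEN, 168 with PEN-MUT, 203 with PEN-WT and 149 with PEN-FFW (0.74 ± 0.15). ATF3 had 208, 225, 314 and 196 (0.56 ± 0.12), SESN2, an amino acid sensor upstream of mTOR, had 1132, 1274, 1676 and 1066 (0.53 ± 0.05), and CHAC1, which degrades glutathione, had 609, 676, 847 and 526 (0.45 ± 0.07). PEN-WT was the highest of the 4 libraries in all 5. The list's median was 0.02 with PEN-MUT and 0.01 with PEN-FFW, and between PEN-WT and PEN-MUT it was 0.07. The binding site of ATF4 with its CEBP partners, searched as TTGCATCA, was found in 1 of 22 promoters of the list (CHAC1, 4.55%) and in 0.82% of all promoters (0.335% of those of kept genes). In the promoter of CHAC1 (GRCh38.p14, chr15:40953221-40953470, plus strand) it starts at -209, in capitals.
CHAC1: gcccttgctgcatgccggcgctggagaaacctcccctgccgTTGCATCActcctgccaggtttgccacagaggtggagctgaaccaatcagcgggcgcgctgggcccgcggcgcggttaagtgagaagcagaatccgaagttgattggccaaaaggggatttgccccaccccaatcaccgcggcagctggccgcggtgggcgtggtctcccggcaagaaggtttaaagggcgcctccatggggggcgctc

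Genes that FOXO factors switch on when insulin signalling is low had the highest median of the lists with at least 5 kept members. Of 18 kept members 14 were above the median gene (median 0.26), 7 were at least 25% higher (38.9%, against 6.61% of kept genes) and 1 was lower. Next to BCL6 stood FOXO4, a FOXO factor itself (71.4 normalized counts with PEN, 91.0 with PEN-MUT, 109.5 with PEN-WT and 80.3 with PEN-FFW, 0.59 ± 0.20). IRS2, the adaptor of the insulin receptor, had 367, 400, 522 and 436 (0.48 ± 0.09). TXNIP, a brake on glucose uptake, had 165, 200, 227 and 148 (0.44 ± 0.13), and PNRC1, a nuclear receptor coactivator, had 810.4, 991, 1116 and 896 (0.43 ± 0.06). The pseudokinase gene TRIB1 was the lower member (-0.43). Against PEN the median was 0.11 with PEN-MUT and 0.27 with PEN-FFW, and between PEN-WT and PEN-MUT it was 0.08.

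**Figure D4:**
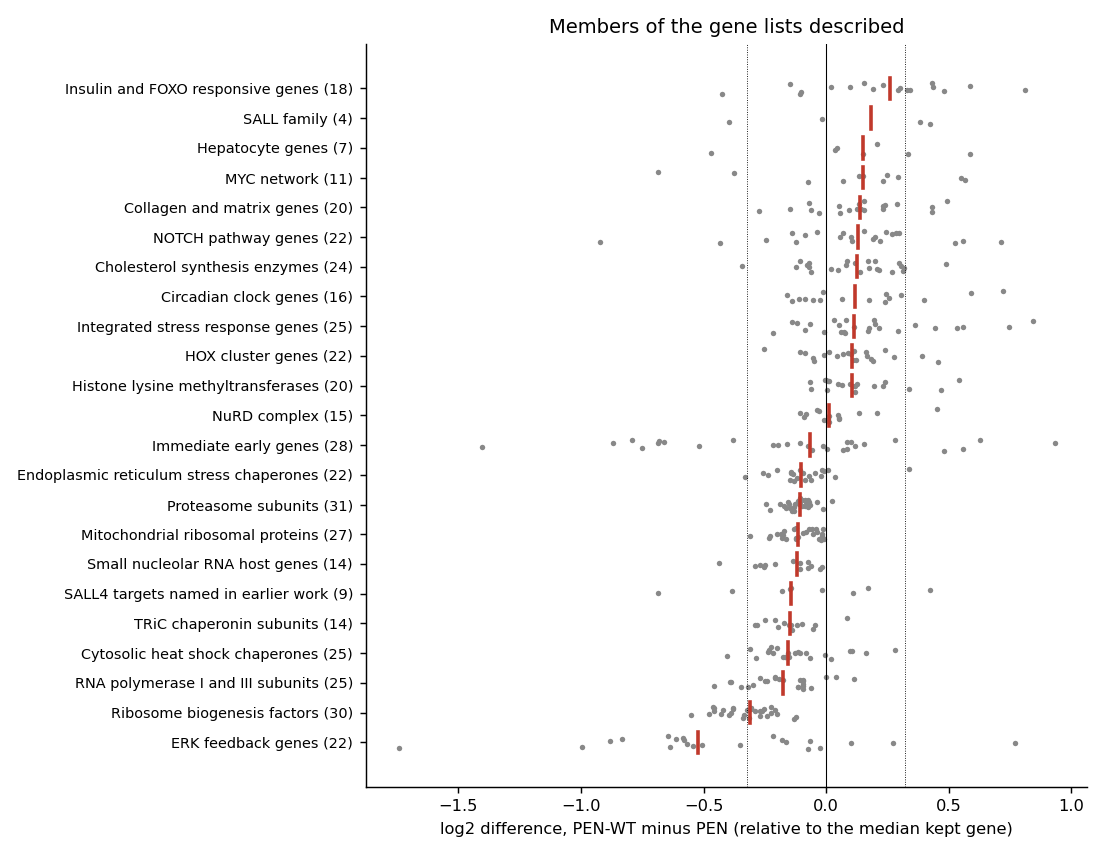
Log2 difference of PEN-WT from PEN, relative to the median kept gene, for the kept members (grey points, number in brackets) of the 23 gene lists described, with each list's median (red bar). Dotted lines mark 25% higher and 20% lower; ERK feedback genes have the lowest median, -0.52, and FOXO-responsive genes the highest, 0.26.

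Transcripts of SALL4 and of its partners were measured as well. SALL4 spans 50398870 to 50419060 of chromosome 20 on GRCh37 (minus strand). It had 1665 normalized counts with PEN, 1359 with PEN-MUT, 1291 with PEN-WT and 1168 with PEN-FFW (-0.40 ± 0.05). PEN was the highest library, and the difference of PEN-WT from PEN-MUT was -0.07. Once centred, SALL4 stood at -0.31 with PEN-MUT and -0.24 with PEN-FFW, so PEN-FFW was lowest in counts but nearest to PEN on the centred scale. SALL2 had 918 with PEN, 985 with PEN-MUT, 1223 with PEN-WT and 1008 with PEN-FFW (0.38 ± 0.06), and SALL3 had 406, 355, 555 and 456 (0.42 ± 0.09). Centred on the median gene, the differences from PEN with PEN-FFW were 0.41 for SALL2 and 0.44 for SALL3, within the counting error of those with PEN-WT. SALL1 stood at -0.02 ± 0.06 (0.01 as deposited). RBBP4, the partner that the SALL4 stretch binds, had 6773 with PEN and 6875 with PEN-WT (-0.01 ± 0.02, and 0.02 as deposited). The 15 NuRD genes had a median of 0.01, with 9 above and 6 below the median gene, and GATAD2B, a bridging subunit, was the 1 member at least 25% higher (6.67%, against 6.61% of kept genes). It had 376 with PEN, 349 with PEN-MUT, 526 with PEN-WT and 533 with PEN-FFW (0.45 ± 0.09). CHD3 (0.21 ± 0.03), CHD5 (0.13 ± 0.05), HDAC2 (-0.11 ± 0.02) and the ATPase CHD4 (-0.09 ± 0.01) had smaller differences. Of 9 kept genes named as SALL4 targets in earlier work 6 were below the median gene (median -0.14, but -0.01 at a mean of at least 200 and -0.09 with no filter or relative to genes of like GC content). The list's median was -0.20 with PEN-MUT and -0.01 with PEN-FFW, and between PEN-WT and PEN-MUT it was 0.01. Beside MYC, the survival gene BCL2 stood at -0.39 ± 0.22 and the cyclin gene CCND1 at -0.18 ± 0.02, while SALL3 and ABCA3 (0.17 ± 0.03) were above.

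Among other chromatin genes, 16 of 20 histone lysine methyltransferases were above the median gene (median 0.10) and 3 were at least 25% higher (against 6.61% of kept genes). These were SUV420H2, which methylates lysine of histone H4 (407 normalized counts with PEN, 549 with PEN-MUT, 606 with PEN-WT and 550.2 with PEN-FFW, 0.54 ± 0.08), SETD1B (0.47 ± 0.05) and SETD1A (0.34 ± 0.04), both enzymes of active promoters. SUV39H1 (0.24 ± 0.05) and SETDB2 (0.23 ± 0.08), which methylate silent chromatin, were smaller differences. Of 22 HOX genes, which set position along the body axis, 16 were above it (median 0.11), with HOXB8 at 0.45 ± 0.18, HOXC6 at 0.39 ± 0.09, HOXB3 at 0.28 ± 0.08, HOXA13 at 0.24 ± 0.10 and HOXD13 below at -0.25 ± 0.04.

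NOTCH and clock genes held members on both sides. In the NOTCH pathway 15 of 22 genes were above the median gene (median 0.13, and 0.07 relative to genes of like GC content). The HES genes, whose products repress transcription under NOTCH, were divided: HES1 was among the 15 lowest genes of the whole comparison, while HES4 had 241 normalized counts with PEN, 255 with PEN-MUT, 404 with PEN-WT and 305 with PEN-FFW (0.71 ± 0.11) and HES7 had 196, 183, 288 and 227 (0.53 ± 0.12). The receptor gene NOTCH3 had 1665, 1850.0, 2505 and 2655 (0.56 ± 0.04), and HEY1, another repressor of the pathway, stood at -0.43 ± 0.06. In the circadian clock 9 of 16 genes were above it (median 0.12, but 0.06 both at a mean of at least 20 and with no filter), led by DBP, an output factor of the clock (564 with PEN, 853 with PEN-MUT, 949 with PEN-WT and 804 with PEN-FFW, 0.72 ± 0.07), and the repressor NR1D2 (1252, 1774, 1927 and 1514, 0.59 ± 0.05). PER1 (0.40 ± 0.14), RORA (0.30 ± 0.07) and ARNTL (0.26 ± 0.11) were above by less.

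Cholesterol synthesis, hepatocyte and matrix genes were mostly above the median gene. Other lipid and liver lists were divided, with 9 fatty acid synthesis genes above and 8 below, and 5 oncofetal liver genes above and 6 below. Of 24 cholesterol synthesis genes 17 were above the median gene (median 0.13), with the mevalonate kinase gene MVK at 726 normalized counts with PEN, 940 with PEN-MUT, 1041 with PEN-WT and 872 with PEN-FFW (0.49 ± 0.06). TM7SF2 (0.32 ± 0.05), INSIG1 (0.31 ± 0.04) and SREBF2 (0.31 ± 0.04) were above, and the sterol carrier STARD4 was below (-0.34 ± 0.04). Of 7 kept hepatocyte genes 6 were above it (median 0.15, but 0.04 at a mean of at least 200, 0.08 relative to genes of like GC content and 0.24 with no filter), among them APOE (52.1 with PEN and 80.0 with PEN-WT, 0.59 ± 0.23), ALB (0.33 ± 0.16) and ASS1 (0.15 ± 0.15), and TDO2, which degrades tryptophan, was below (1846 and 1362, -0.47 ± 0.05). Of 20 collagen and matrix genes 15 were above it (median 0.14), with COL1A1 at 0.49 ± 0.15, COL2A1 at 0.43 ± 0.19, LAMA5 at 0.43 ± 0.04, COL6A1 at 0.29 ± 0.07 and LAMB1 at -0.28 ± 0.03. Their median transcript GC content was 61.7%, and relative to genes of like GC content the list's median was 0.01. The other 33 lists had medians from -0.10 to 0.10.

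The GC content of transcripts moved with the differences. Over 12230 genes with a matched transcript, Spearman's rho across genes between GC content and the difference was 0.356 for PEN-WT, 0.090 for PEN-MUT and 0.363 for PEN-FFW, in comparisons that share the PEN library and in which genes are not independent replicates. In 20 bins of GC content the median difference in PEN-WT went from -0.08 in the lowest bin (median GC 35.7%) to 0.16 in the highest (66.2%). In the highest bin 5.07% of genes were at least 1.5-fold higher, and in the lowest 0 of 612. Genes at least 1.5-fold higher had a median GC content of 59.9%, those at least 1.5-fold lower 48.8%, and all kept genes 48.2%. Lower genes had shorter transcripts (median 2410 bases against 3210 for higher and 3370 for all kept genes) with fewer exons (4 against 8 and 9). Those with a matched transcript included 6 annotated as small nucleolar RNAs, which are short. Over all 12230 genes rho with the difference in PEN-WT was 0.057 for transcript length and 0.037 for exons. Taken relative to genes of like GC content, 91 of the 12230 genes were at least 1.5-fold higher and 53 lower, against 135 and 49 of them before this step. DUSP6 then stood at -1.72, EGR1 at -1.45, JUN at 0.89 and DDIT4 at 0.80. The medians of the ERK feedback and ribosome biogenesis lists were then -0.48 and -0.33. Among smaller differences this step took SETD1A to 0.21, TM7SF2 to 0.19, LAMA5 to 0.28, ABCA3 to 0.07, CHD5 to 0.04 and HDAC2 to -0.05.

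**Figure D5:**
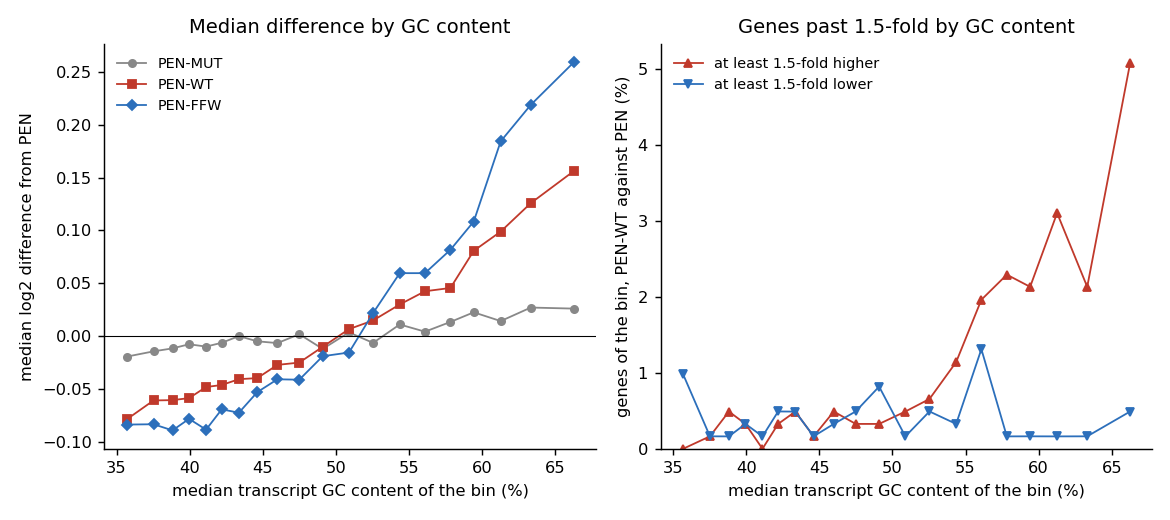
Left, median log2 difference from PEN in 20 bins of transcript GC content for each peptide (grey, PEN-MUT, red, PEN-WT, blue, PEN-FFW), in comparisons that share the PEN library. Right, the percentage of genes in each bin at least 1.5-fold higher or lower in PEN-WT than in PEN; the share of higher genes is 5.07% in the bin of highest GC content and 0 in the lowest.

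PEN-FFW against PEN-MUT is a pair that uses neither library of the comparison. In it 976 genes (7.76% of kept genes) were at least 1.5-fold higher and 25 (0.199%) at least 1.5-fold lower. Of the 141 genes higher in PEN-WT than in PEN, 68 were also higher in that pair (48.2% of the 141 and 6.97% of the 976), and 1 was at least 1.5-fold lower. The 7.76% is over genes of all levels, while 106 of the 141 were in the group with the lowest counts. There the half-width of the central 68% of differences of PEN-FFW from PEN was 0.46, against 0.17 in the group with the highest counts. No share over genes of like counts was taken, so how far the 48.2% exceeds it was not tested. The filter on the mean used all 4 libraries, so the 2 pairs are not separate in this respect. A gene low with PEN and PEN-MUT, such as DOK7 (21.0 in each), could be kept through PEN-WT and PEN-FFW (53.6 and 120.9). The part of such genes in the 68 was not tested. ATN1, BCORL1, DOK7 and ANKRD30BL were among the genes whose PEN-FFW counts lay above those of PEN-MUT. Of the 54 genes lower in PEN-WT than in PEN, 2 were also lower in that pair (3.70% of the 54 and 8.00% of the 25), and 5 went past 1.5-fold the other way. The median of the second pair's difference was 0.56 over the 141 genes and -0.05 over the 54. Relative to genes of like GC content, an alternative added after the data were seen, 38 of 91 higher genes (41.8%) and 3 of 53 lower genes (5.66%) were shared, out of 766 and 23 in the second pair. As a description across all 12578 genes, which are not independent, Spearman's rho between the 2 pairs was 0.406, and 0.346 relative to genes of like GC content.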

How the data were processed

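The authors deposited a table of log2 values with 23710 genes and 1 column for each of the 4 RNA libraries, with 0 other columns of per-sample values. Column names were matched to those in the samples' descriptions. The submitters' processing notes name hg19, STAR 2.4.0i and featureCounts 1.5.0-p1. How the values were normalized, the annotation and the strand setting are not given in sources used here. Reads of overlapping or antisense genes therefore cannot be separated, and values of genes that have near-identical copies are uncertain. Raised to the power of 2, every value above the lowest one (5) was a whole number of reads, within 0.1, times 1 factor per library. The 3 chromatin samples were not analysed here.

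Differences were taken on the deposited log2 scale without a pseudocount and centred on the median gene with a mean of at least 50. Counting errors follow the Poisson law (reads are not independent molecules), and intervals are 1.96 standard errors wide on each side. No test was possible, so genes were called by fold. The 15 highest and 15 lowest genes by the interval's bound nearest 0 were named, with all genes past 2-fold, SALL4, RBBP4 and up to 5 members farthest from the median gene in each list described. Lists described had a median at least 0.10 from the median gene or 3 members past 1.5-fold, or were the SALL family and NuRD. Members named besides these were chosen after their values were seen, and some members are not reported here. The members and lists were chosen with earlier results of these data known. Positions, GC content and transcript length came from GENCODE 44 on GRCh37 (symbols matched for 20574 genes, older symbols for 1528, and 1608 had no match). Promoters and miRNAs came from RefSeq tables on GRCh38.p14, motifs were searched on both strands of the 250 bases before the start, and the scripts, in Python 3.11.15 with numpy 2.4.6, pandas 2.3.3 and scipy 1.17.1, were tested on simulated data. Alternatives were other scalings, a pseudocount of 10, other filters and GC content.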

Additional observations from a re-analysis of the deposited data

How the results depend on the processing

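Counts of genes past a fold depended on the filter for low values. With a mean of at least 20, 304 genes were at least 1.5-fold higher and 125 lower, against 141 and 54, and 34 and 14 passed 2-fold, against 11 and 3. With a mean of at least 200 the numbers were 51 and 29 at 1.5-fold, and 4 were at least 2-fold higher. Without a filter they were 686 and 370 at 1.5-fold and 113 and 59 at 2-fold. A pseudocount of 10 left 6 genes at least 2-fold higher. Relative to genes of like GC content 91 were at least 1.5-fold higher, against 135 before this step among the genes that have a GC content. The filters change which genes are counted, and for the rest the cause was not tested. Values as deposited, median-ratio scaling and scaling to total reads kept all 4 counts within 1.5 times of these. Of 136 named genes 2 changed sign, RBBP4 (up to 0.04) and SALL1 (up to 0.02), as did the NuRD median, to -0.01 relative to GC content. Of the recomputed differences of named genes 1008 stayed within the 95% counting interval and 55 did not: 30 relative to GC content (IER2, NBEAP1, MIR3648 and MIR3687 then stood at -0.81, -0.57, 2.91 and 2.47), 14 scaled to total reads and 11 as deposited. For list medians the limit was the 95% counting interval of a typical member gene. This is wider than an interval of the median itself, so staying within it is a weak check. Of recomputed list medians 181 stayed within this limit and 3 did not. SALL4 targets then stood at -0.01 at a mean of at least 200. The TRiC list stood at -0.11 scaled to total reads, and matrix genes at 0.01 relative to GC content. The proteasome median went from -0.11 to -0.07 scaled to total reads and counted as within the limit. Relative to GC content, over the 12230 genes that have it, 38 higher genes were shared with PEN-FFW against PEN-MUT, against 68 over all kept genes. No replicate could be left out, and no paired analysis was possible because each peptide had 1 library. Depth limits the low genes most, as a counting error of 0.17 against 0.03 for the highest counts shows.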
